A study of Ovis aries with 18 samples.

Results

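The miR-143 and miR-145 rows of the miRNA table were followed in testes of Small Tail Han Sheep, a Chinese breed. Of 7146 rows, 12 carried the name miR-143 or miR-145 with no further letter, and the 8 rows with at least 50 reads summed over the 9 libraries were taken as members: 2 rows of miR-143, 5 rows of miR-145-5p and 1 row of miR-145-3p. The members were chosen by their names and by those summed reads, so the sums are a description. The study took the left testis of 9 intact rams, 3 each at 2, 6 and 12 months of age, to follow testis development, and made 1 small RNA library and 1 mRNA library from each ram. No treatment or modified genotype is named for any group. RNA came from frozen tissue of the testis interior, in which germ cells, Sertoli cells, Leydig cells, vessels and muscle-like cells are mixed, so that fewer cells of a type and less RNA per cell cannot be told apart.

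miR-143 and miR-145 are cut from a common primary transcript and are best known as miRNAs of the smooth muscle of vessels and hollow organs. Their gene is switched on by serum response factor (SRF) with myocardin, the pair that also drives the contractile genes of smooth muscle. Both miRNAs repress genes that keep muscle cells in an immature, dividing state, such as the transcription factors KLF4, KLF5 and ELK1. In the testis such cells form the vessel walls and, as contractile peritubular myoid cells, the outer layer of the seminiferous tubules. In the sheep annotation of RefSeq the miR-143 gene lies between IL17B and CSNK1A1.

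The sequences of the members are shown because they tell which rows are separate miRNAs and which are versions of the same one. They were read from the deposited miRNA table, are written 5′ to 3′, and have the seed, the bases that pair first with a target, in capitals (bases 2 to 8). A chromosome in a name is the one to which the authors' prediction assigned the row, and rno marks a row matched to the rat entry of miRBase, the miRNA sequence collection.
chr5 miR-145-5p: gTCCAGTTttcccaggaatccc
chrx miR-145-5p: gTCCAGTTttcccagga
chr3 miR-145-5p: gTCCAGTTttcccagga
chr10 miR-145-5p: gTCCAGTTttcctaggaat
rno-miR-145-5p: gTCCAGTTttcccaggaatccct
chr5 miR-145-3p: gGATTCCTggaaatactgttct
oar-miR-143: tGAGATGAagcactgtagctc
rno-miR-143-3p: tGAGATGAagcactgtagctca

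The 5 miR-145-5p rows shared the seed TCCAGTT and the 2 miR-143 rows the seed GAGATGA, so the 8 rows held 3 seeds in all. The chrx and chr3 rows had the same 17 bases, which were also the first 17 bases of the 22-base chr5 row. The rno-miR-145-5p row was the chr5 sequence with 1 more base, and the rno-miR-143-3p row was oar-miR-143 with 1 more base. The chr10 row covered the first 19 bases of the chr5 row with 1 difference, C13T, counted from 1 at the 5′ end with the base of the chr5 row first. The rows were therefore not independent measurements, and reads of a shortened chr5 miR-145-5p could not be told from those of the chrx and chr3 rows. The chr5 row summed to 1474885 reads, oar-miR-143 to 413249, the chrx row to 22004, chr5 miR-145-3p to 3063 and the chr3 row to 2323. The rno-miR-143-3p row summed to 344 reads and the chr10 row to 313. At the threshold, rno-miR-145-5p lay just inside with 80 reads. The 4 rows just outside, which held 24 reads together, were mmu-miR-143-3p with 11 reads, hsa-miR-143-3p and hsa-miR-145-5p with 6 each and rno-miR-145-3p with 1. The 3 mouse rows named miR-145a or miR-145b, which the naming rule leaves out, held 62 reads.

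The miRNA libraries held 295282 to 5710499 reads and the mRNA libraries 8657609 to 10937143. Some libraries stood apart in the mRNA data before any age was compared. The ram numbered 1 at 12 months stood apart in the 16 listed genes of epithelia and of the epididymis, the duct that stores sperm, at a summed 1984 CPM (reads scaled to a common library size) against 105 to 173 in the other 8. Of this sum, 8 epididymis genes held 1204 CPM against 0 to 7.27 in the other rams, with 4 of the 8 highest in that ram and 2 at 0 there, and 8 general epithelial genes held 780 CPM against 105 to 169. In that ram CRISP1, a secreted protein of the epididymis, had 1270 reads against 0 in each other ram, and the epithelial miRNA oar-miR-200a had 34280 CPM against 50.6 to 1765. Genes of spermatids, the maturing male germ cells, summed to 7393 CPM in 2-month ram 1 and to 7749 to 11469 CPM in the 6-month rams and in 12-month rams 1 and 2. The same 8 genes summed to 175 and 1018 CPM in 2-month rams 2 and 3 and to 259 CPM in 12-month ram 3, so that 2-month ram 1 and 12-month ram 3 each lay far from the other rams of their age. Their age labels were kept as given, and whether the libraries carry the right labels was not tested. Sertoli cell genes summed to 2836 to 14689 CPM over 11 genes, and AMH among them had 0 reads in 6-month ram 2. The lowest sum was that of 12-month ram 1, where CLU alone held 2536 CPM. Fold changes and counts that rest most on 12-month ram 1 are also given without it.

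Rows named miR-143 or miR-145 took a large share of the miRNA reads in every testis. Together the 12 rows held 4.89% to 35.1% of a library, and chr5 miR-145-5p and oar-miR-143 made up 97.7% to 99.1% of that. The chr5 miR-145-5p row was the most abundant row in 7 of 9 libraries and ranked 3 in 2-month ram 1 and 6-month ram 2. Its share of the library was 4.72%, 5.13% and 6.58% in the 2-month rams 1 to 3. In the 6-month rams the share was 7.11%, 3.64% and 7.82%, and in the 12-month rams 27.1%, 7.81% and 12.1%. The share in 12-month ram 1 lay above all others, 12-month ram 3 was next, and 12-month ram 2 lay within the range of the 6-month rams. Counting error was small beside the gaps that set 12-month rams 1 and 3 above the others. The widest 95% Wilson interval, that of 6-month ram 3, ran from 7.72% to 7.91%. It held the share of 12-month ram 2, so the order of these rams was not resolved. Wilson intervals cover counting error only and leave out the spread between rams. They treat reads as independent, and no molecular identifiers are named for these libraries.

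**Figure D1:**
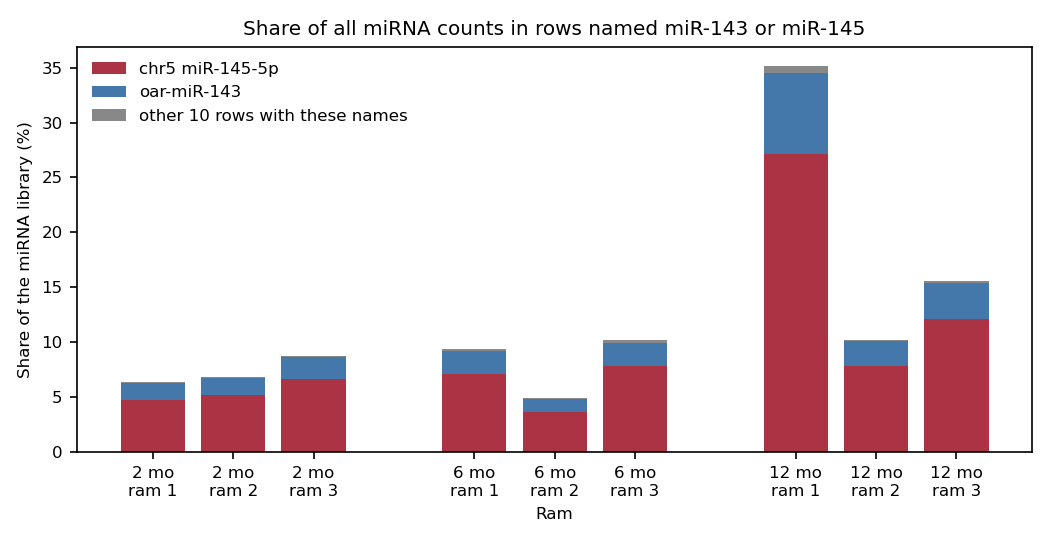
Share of each miRNA library (%, y axis) held by chr5 miR-145-5p, oar-miR-143 and the other 10 rows with these names, stacked by ram (x axis, 3 rams per age). The bars reach 35.1% in 12-month ram 1 and 4.89% in 6-month ram 2.

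The guide strand of miR-145, the 5p arm of the chr5 row, was compared between ages as upper-quartile scaled CPM. It stood at 36302, 49630 and 53081 CPM in the 2-month rams, with a mean of 46338 ± 8861 (SD, n = 3). In the 6-month rams it stood at 70079, 36996 and 73398 CPM (60158 ± 20127), and in the 12-month rams at 437306, 78262 and 143721 CPM (219763 ± 191219). The 2- and 6-month values overlapped, whereas each 12-month ram lay above each younger ram on this scale. The log2 fold change was 0.38 ± 0.57 (SE) from 2 to 6 months, 1.87 ± 0.59 from 6 to 12 months and 2.25 ± 0.59 from 2 to 12 months. None passed edgeR's quasi-likelihood test after Benjamini-Hochberg adjustment over 969 miRNAs, with adjusted p of 0.817, 0.432 and 0.774 and unadjusted p of 0.523, 0.0104 and 0.00400. Without 12-month ram 1 the log2 fold change was 0.85 from 6 to 12 months and 1.24 from 2 to 12 months.

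oar-miR-143, the listed sheep miRNA and the partner of miR-145 in the shared transcript, followed the same order of rams with one swap between 6-month rams 1 and 3. Its values were 12169, 15259 and 16791 CPM at 2 months (14740 ± 2354, SD, n = 3) and 20641, 12170 and 19603 CPM at 6 months (17471 ± 4621). At 12 months they were 119573, 22433 and 38466 CPM (60158 ± 52076), again above every younger ram. The log2 fold change was 0.25 ± 0.55 (SE), 1.78 ± 0.57 and 2.03 ± 0.57 from 2 to 6, 6 to 12 and 2 to 12 months, with edgeR adjusted p of 0.898, 0.432 and 0.910. Without 12-month ram 1 the last of these were 0.77 and 1.03.

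The ratio of chr5 miR-145-5p to oar-miR-143 varied far less than either row, from 2.98 to 3.74 with a median of 3.40, while each row on its own varied 12.0-fold and 9.83-fold between libraries. By ram it was 2.98, 3.25 and 3.16 at 2 months, 3.40, 3.04 and 3.74 at 6 months, and 3.66, 3.49 and 3.74 at 12 months. The log2 ratio was 0.21 higher at 12 than at 2 months, with no overlap between the rams of these ages. An exact two-sided permutation test of 3 against 3 rams gave p = 0.1, the smallest it can give, and 0.2 after Benjamini-Hochberg adjustment over the 6 ratio tests made. From 2 to 6 and from 6 to 12 months the log2 ratio was 0.11 and 0.10 higher (exact permutation p = 0.3 and 0.4), and the values overlapped.

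The passenger strand of miR-145, the 3p arm of the chr5 row, was rare beside the 5p arm. It had 65.5, 172 and 141 CPM at 2 months, 165, 144 and 184 CPM at 6 months and 1059, 154 and 209 CPM at 12 months. Only 12-month ram 1 lay well outside the range of the younger rams. The 5p arm had 257 to 688 reads for each read of the 3p arm. The log2 fold change from 6 to 12 months was 1.53 ± 0.71 (SE; edgeR adjusted p = 0.490), and 0.11 without 12-month ram 1.

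**Figure D2:**
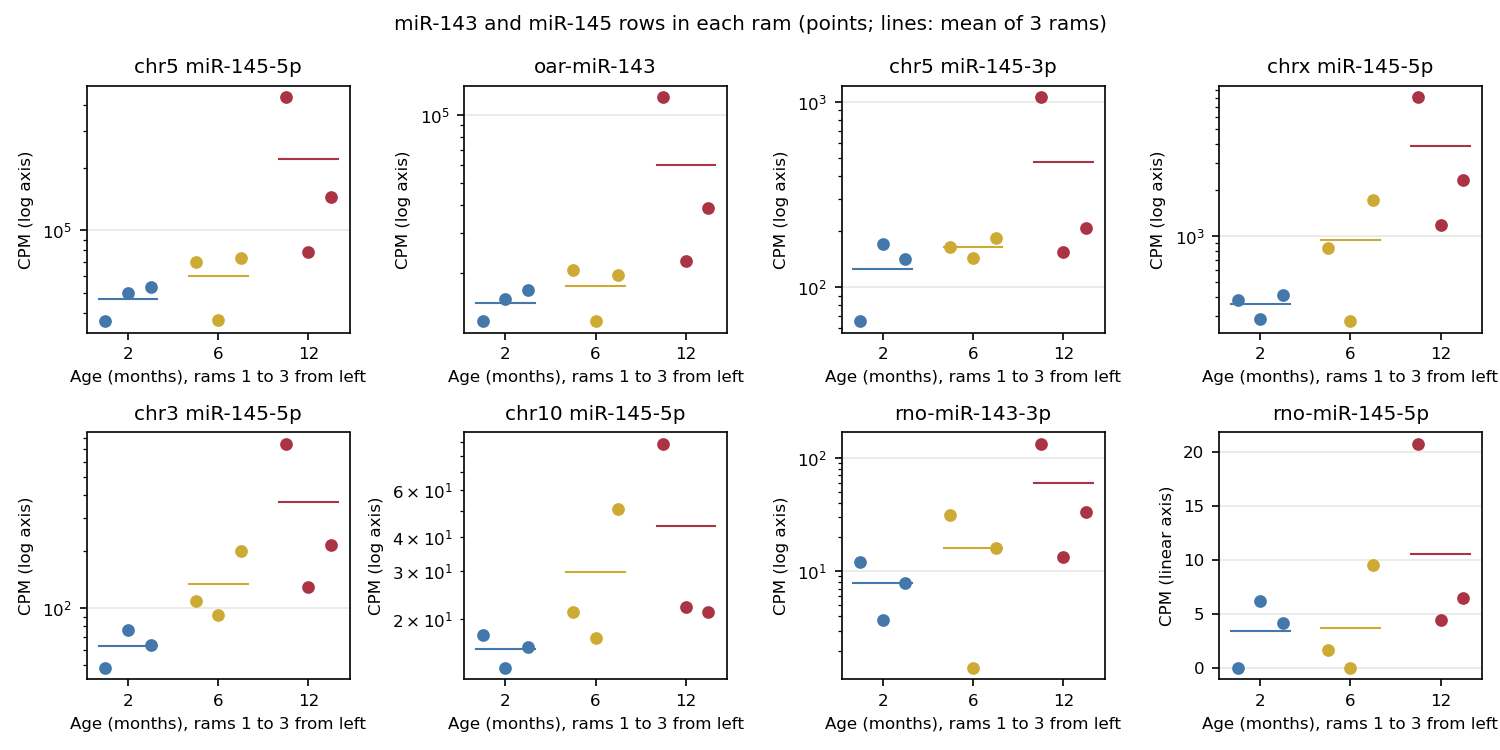
Upper-quartile scaled CPM (y axis, log scale except for rno-miR-145-5p) of the 8 members in each ram (points, rams 1 to 3 from left within each age in months on the x axis), with the mean of 3 rams as a line. In each panel the highest point is 12-month ram 1.

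The chr10 and chrx rows, both named miR-145-5p, were compared directly. The chrx row had 285, 697 and 991 reads in the 2-month rams, 515, 196 and 538 in the 6-month rams, and 7008, 532 and 11242 in the 12-month rams. The chr10 row had 13, 32 and 38 reads, then 13, 12 and 16, then 77, 10 and 102. The chr10 row was the lower one in 9 of 9 libraries, at 0.907% to 6.12% of the chrx row, with a mean log2 ratio of -5.19 ± 0.96 (SD, n = 9). An exact two-sided sign-flip permutation test gave p = 0.0039, the smallest that 9 libraries can give. Reads summed over the same 9 libraries, 313 for the chr10 row and 22004 for the chrx row, were known beforehand. They already put the chr10 row far lower, so this test adds nothing to the counts.

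The gap between these rows was wider at 12 months. The chr10 row stood at 4.56%, 4.59% and 3.83% of the chrx row at 2 months, at 2.52%, 6.12% and 2.97% at 6 months, and at 1.10%, 1.88% and 0.907% at 12 months. Each 12-month ratio lay below each ratio at the younger ages. The log2 ratio was lower by 1.56 than at 6 months and by 1.81 than at 2 months, each with an exact permutation p = 0.1, the smallest possible, and an adjusted p = 0.2. Between 2 and 6 months the ratios overlapped (difference -0.25, exact permutation p = 0.6).

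The chrx and chr3 rows, whose sequences are identical, did not have equal counts. The chrx row had 3.02 to 10.8 times the reads of the chr3 row (median 7.92). How reads of this sequence were assigned to either row was not tested. Against the chr5 row, the chrx row stood at 0.577% to 2.33%, the chr3 row at 0.120% to 0.273% and the chr10 row at 0.0147% to 0.0693%.

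**Figure D3:**
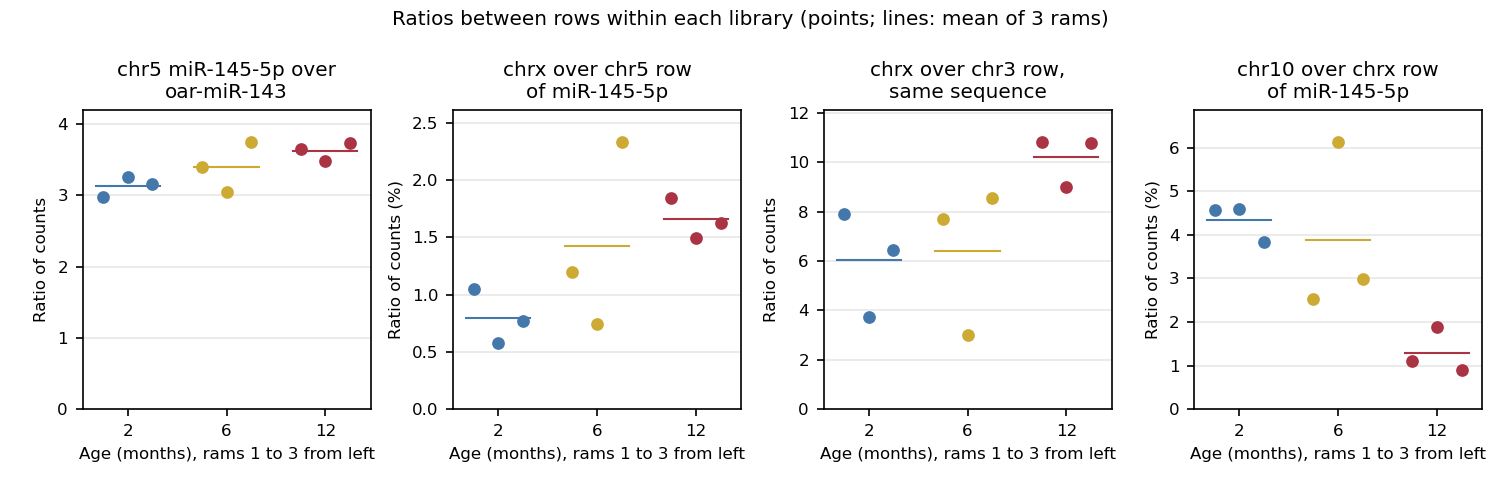
Ratios of read counts within each library (y axes, as a ratio or in %, from 0), by age in months (x axis; rams 1 to 3 from left, line at the mean of 3 rams). The miR-145 to miR-143 ratio stays between 2.98 and 3.74, whereas the chr10 to chrx ratio is below 2% only in the 3 rams at 12 months.

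Across the members, 7 of 8 passed the filter on low counts and were tested. In the edgeR fit none of the 7 was called in any of the 3 comparisons (adjusted p under 0.05 and more than 1.5-fold), where 0% of all 969 tested miRNAs were called each time. DESeq2 called the chrx row from 2 to 12 months (log2 fold change 3.37, adjusted p = 0.0271), among 3 miRNAs called in all. An edgeR fit of the unfiltered table called the chrx, chr3 and rno-miR-143-3p rows from 2 to 12 months, among 41 miRNAs called. It also called the chrx row from 6 to 12 months, again among 41 miRNAs. At an unadjusted p under 0.05, edgeR gave 63, 97 and 47 of the 969 miRNAs from 2 to 6, 6 to 12 and 2 to 12 months. From 2 to 6 months 0 of the 7 members had such a p with a higher level, beside 1.86% of all tested. From 6 to 12 months 4 of 7 did, beside 7.12%, and from 2 to 12 months 7 of 7 did, beside 4.02%. Without 12-month ram 1 these counts were 2 of 7 from 2 to 6 months, beside 3.02% of all tested, 0 of 7 from 6 to 12 months, beside 3.61%, and 4 of 7 from 2 to 12 months, beside 0.78%. The members' median log2 fold change was 0.90, 1.78 and 2.25 in these comparisons, beside 0.05, 0.05 and 0.11 over all tested miRNAs. Without 12-month ram 1 it was 0.92, 0.56 and 1.24, beside 0.09, -0.03 and 0.09. The 7 rows share sequences and 12-month ram 1, and none is an independent check of another.

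In each of the 7 tested members the highest level was in 12-month ram 1, where 18.4% of tested miRNAs were highest. The untested rno-miR-145-5p row was also highest there, on 18 reads. It reached 50 summed reads only with its 12-month libraries. In 6 of 8 members the next was 12-month ram 3. The lowest level was in 2-month ram 1 for 4 members, in 6-month ram 2 for 3 and in 2-month ram 2 for 1. In scaled CPM the 12-month rams lay wholly above the 2-month rams for 6 of 7 tested members (4.54% of all tested miRNAs) and above the 6-month rams for 2 of 7 (10.5%). As a share of the library, which uses no scaling, these were 4 of 7 (0.722%) and 1 of 7 (3.3%), the last being oar-miR-143. On this scale chr5 miR-145-5p overlapped the 6-month rams only through 12-month ram 2 at 7.81% and 6-month ram 3 at 7.82%. That difference lay within counting error. The 6-month rams lay wholly above the 2-month rams for 1 of 7 on either scale, the chr3 row, beside 4.13% of all tested miRNAs in scaled CPM and 1.75% as a share of the library.

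The chrx row had the smallest unadjusted p of all 969 miRNAs from 2 to 12 months (0.00252), with a log2 fold change of 3.43 ± 0.84 (SE). Its levels were 381, 286 and 411 CPM at 2 months, 840, 277 and 1711 CPM at 6 months and 8077, 1172 and 2336 CPM at 12 months. The chr3 row, with the same bases, gave 2.53 ± 0.65, the chr10 row 1.52 ± 0.65 and rno-miR-143-3p 2.99 ± 1.03. Their edgeR adjusted p values were 0.774 for the chrx and chr3 rows, 0.99996 for the chr10 row and 0.910 for rno-miR-143-3p. Without 12-month ram 1 the values were 2.27, 1.45, 0.47 and 1.65 in the same order, and from 6 to 12 months that of the chr10 row turned from 0.62 to -0.45. The rno-miR-145-5p row, not tested, had 0, 15 and 10 reads at 2 months, 1, 0 and 3 at 6 months and 18, 2 and 31 at 12 months. A count of 0 allows up to 5.21 CPM in 2-month ram 1 and 4.16 CPM in 6-month ram 2, before scaling.

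Other rams were also left out. Without 2-month ram 1 and 12-month ram 3, whose spermatid genes stood apart, chr5 miR-145-5p gave a log2 fold change of 2.07 from 6 to 12 months and 2.31 from 2 to 12 months. With 12-month ram 1 also left out it gave 0.35 and 0.48, and oar-miR-143 gave 0.32 and 0.36. These exclusions were chosen after the data were seen, and the last leaves a single ram at 12 months.

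**Figure D4:**
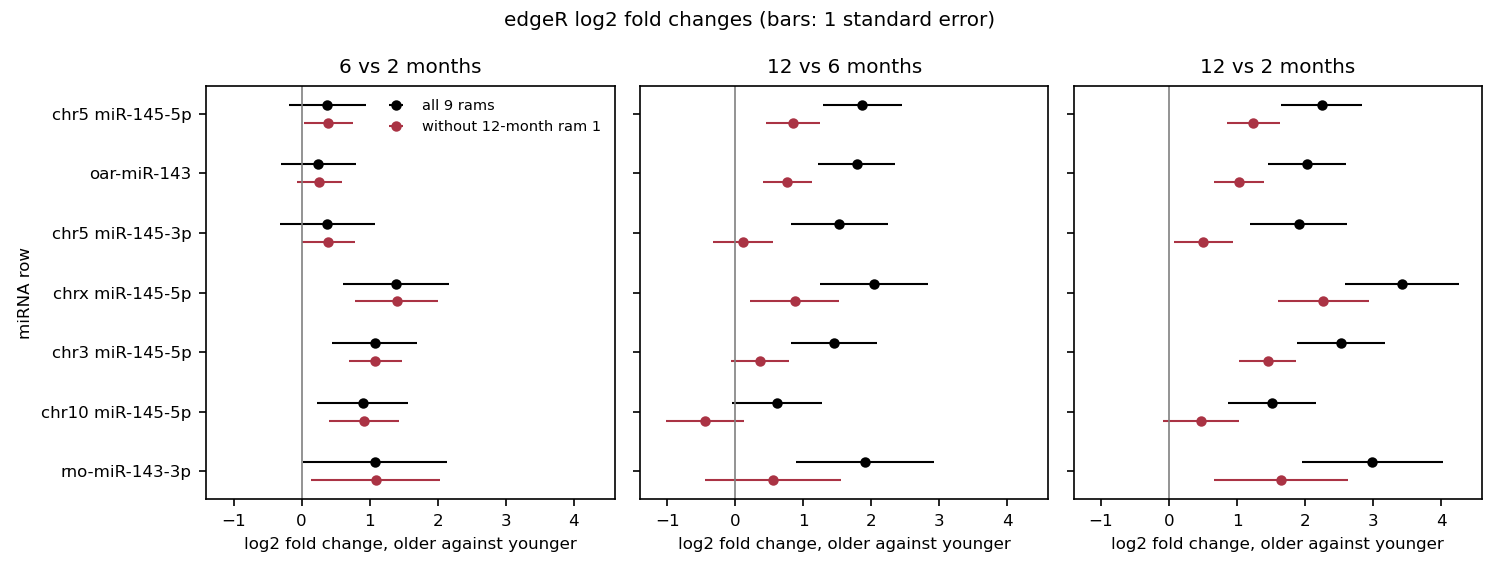
edgeR log2 fold change (x axis, bars of 1 SE) of the 7 tested members (y axis) in 3 age comparisons, with all 9 rams in black and without 12-month ram 1 in red. From 6 to 12 months chr5 miR-145-5p moves from 1.87 to 0.85 and chr10 miR-145-5p from 0.62 to -0.45.

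The contractile genes of smooth muscle were read in the mRNA libraries of the same rams. Their 18 list genes summed to 936, 2375 and 1728 CPM in the 2-month rams, 1061, 647 and 827 CPM in the 6-month rams and 8973, 1140 and 2191 CPM in the 12-month rams. All 18 genes were highest in 12-month ram 1, where 18.9% of the 14921 tested mRNAs were highest. In 2-month rams 2 and 3 the sum lay above every 6-month ram, whereas chr5 miR-145-5p in these rams lay within the 6-month range. The same 12-month ram 1 held the epididymis genes described above, and the part of tissue composition in the miRNA levels was not tested.

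**Figure D5:**
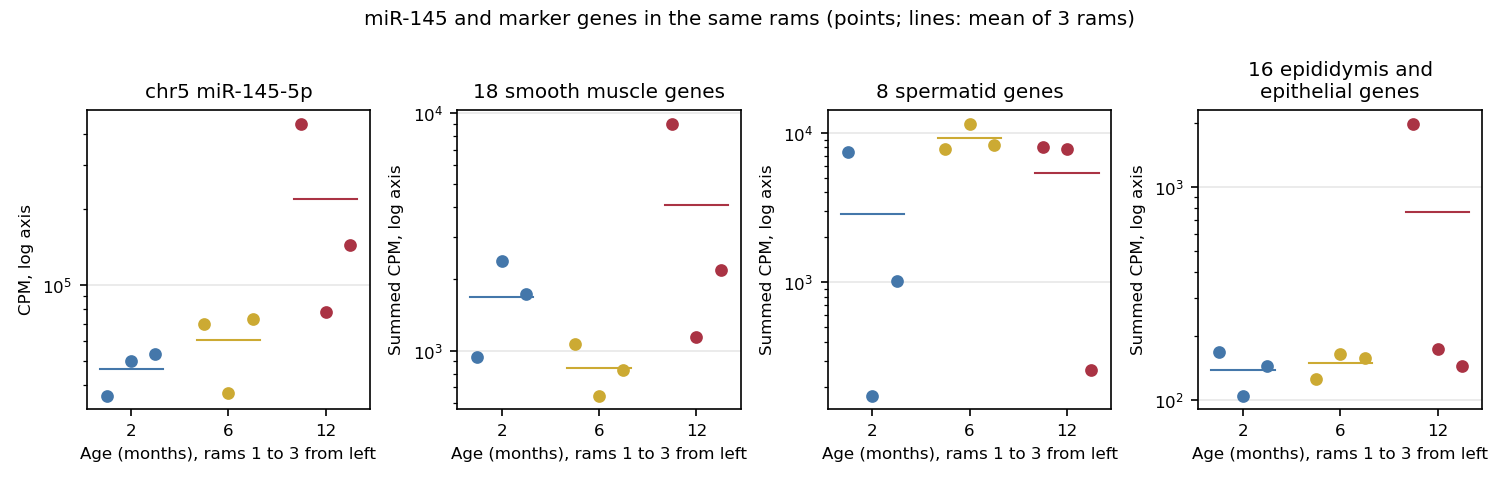
chr5 miR-145-5p (CPM) and the summed CPM of smooth muscle, spermatid and epididymis or epithelial genes (y axes, log scale) in each ram (points; rams 1 to 3 from left within each age in months; lines are the mean of 3 rams). In 12-month ram 1 the smooth muscle genes sum to 8973 CPM and the epididymis and epithelial genes to 1984 CPM, both above the other 8 rams.

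Among the single genes, ACTA2, the smooth muscle actin, had 198, 668 and 544 CPM at 2 months, 239, 139 and 167 CPM at 6 months and 2562, 322 and 588 CPM at 12 months. Its 12-month rams lay above its 6-month rams, by a log2 fold change of 2.67 ± 0.82 (SE; edgeR adjusted p = 0.710), or 1.33 without 12-month ram 1. MYH11, the smooth muscle myosin heavy chain, gave 2.24 ± 0.76, and 0.99 without that ram. ACTG2, the actin of visceral smooth muscle, stood at 878 CPM in 12-month ram 1 and at 9.58 to 43.9 CPM in the other rams. DES, the intermediate filament desmin, stood at 497 CPM in that ram and at 17.0 to 49.0 CPM elsewhere. For TAGLN and CNN1, both actin-binding proteins of contractile cells, the log2 fold change from 6 to 12 months was 2.81 ± 0.88 and 2.75 ± 0.93, and 1.23 and 0.93 without 12-month ram 1. MYL9 and MYLK, a myosin light chain and its kinase, gave 2.08 ± 0.58 and 2.01 ± 0.79, and LMOD1, which nucleates actin filaments, gave 2.29 ± 0.94. Without that ram these were 1.24, 0.80 and 0.68. KCNMB1, a potassium channel subunit of smooth muscle, had the smallest p of the list, with 3.83, 3.62 and 3.58 CPM at 6 months and 26.1, 7.42 and 15.4 CPM at 12 months (log2 fold change 2.14 ± 0.51, edgeR adjusted p = 0.710).

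No gene of this list was called in any comparison, where 0% of the 14921 tested mRNAs were called. At an unadjusted p under 0.05, edgeR gave 608, 1025 and 399 mRNAs from 2 to 6, 6 to 12 and 2 to 12 months. From 6 to 12 months 15 of 18 list genes had such a p with a higher level, beside 6.16% of all tested, and the list median was 2.11 against 0.05. Without 12-month ram 1 that count fell to 3 of 18, beside 2.09%. From 2 to 12 months 4 of 18 did, beside 2.01%, with a median of 1.26 against 0.07, and without that ram 0 of 18 did, beside 0.596%. From 2 to 6 months 0 of 18 did, beside 1.36%, and the median was -0.91 against -0.06, opposite in sign to the members' median of 0.90. The most abundant members, chr5 miR-145-5p and oar-miR-143, gave 0.38 and 0.25, and without the filter on low counts they gave -0.39 and -0.51. Whether that difference in sign exceeds the spread between rams was not tested. Without 12-month ram 1 the list median was 0.90 from 6 to 12 months and 0.10 from 2 to 12 months.

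The known activators of the miR-143 and miR-145 gene moved within a narrower range when summed, though not each on its own. Their sum ran from 361 to 657 CPM, against 647 to 8973 CPM for the smooth muscle genes. SRF stood at 45.1 to 63.1 CPM in all 9 rams, with log2 fold changes of 0.16 ± 0.20 and -0.01 ± 0.20 from 2 to 6 and 6 to 12 months. MYOCD, the gene of myocardin, had 5.07, 10.4 and 8.41 CPM at 2 months, 2.90, 2.83 and 3.93 CPM at 6 months and 9.03, 4.41 and 6.11 CPM at 12 months. The 6-month rams were the lowest for this gene, without overlap with either other age. Its log2 fold change was -1.30 ± 0.41 from 2 to 6 months and 1.01 ± 0.41 from 6 to 12 months (edgeR adjusted p = 0.566 and 0.710). The related cofactors MRTFA and MRTFB ranged from 11.0 to 38.3 and from 35.7 to 94.5 CPM, and MRTFB was highest in 12-month ram 1. JAG1, a Notch ligand, ranged more widely, from 8.14 to 36.0 CPM, and gave 1.33 ± 0.51 from 6 to 12 months. The Notch receptor NOTCH3 gave 0.83 ± 0.44 from 2 to 12 months, or 0.13 without 12-month ram 1. Of the 11 tested activators 0 were called, beside 0% of all tested mRNAs. The list median was -0.61, 0.46 and -0.15 from 2 to 6, 6 to 12 and 2 to 12 months. Over all tested mRNAs it was -0.06, 0.05 and 0.07.

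Of the 19 genes in the table that are reported elsewhere as targets of miR-145, 5 were highest in 12-month ram 1, the ram with the most miR-145, beside 18.9% of all tested mRNAs. The part of tissue composition in their levels there was not tested. KLF4 had 122, 4.30 and 12.3 CPM at 2 months, 147, 119 and 142 CPM at 6 months and 120, 124 and 5.50 CPM at 12 months. KLF5 was likewise at 61.1 to 92.4 CPM in 6 rams and at 7.49 to 10.5 CPM in 2-month rams 2 and 3 and 12-month ram 3. The 3 rams low in both genes were those with the lowest spermatid genes, and the part of germ cells in these levels was not tested. FSCN1, which bundles actin, ranged from 7.46 to 37.4 CPM, and CAMK2D, a calcium-dependent kinase, was highest in 12-month ram 1 at 60.6 CPM and at 12.97 to 29.4 CPM elsewhere. SOX9, the Sertoli cell transcription factor, had the smallest p of this list from 2 to 6 months, at -1.87 ± 0.69 (log2, SE), and DAB2, an endocytic adaptor, from 6 to 12 months, at 1.59 ± 0.67, or 0.76 without 12-month ram 1. Of 18 tested targets 0 were called, beside 0% of all tested mRNAs. The list median was -0.12, 0.18 and 0.25 in the 3 comparisons, beside -0.06, 0.05 and 0.07 over all tested mRNAs.

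Of the 12 reported targets of miR-143, 3 were highest in 12-month ram 1, beside 18.9% of all tested mRNAs. ELK1, an SRF partner that favours growth over contraction, had 23.7, 54.4 and 29.4 CPM at 2 months, 25.7, 14.2 and 18.9 CPM at 6 months and 59.9, 18.7 and 40.4 CPM at 12 months. It was highest in 12-month ram 1, the ram with the most miR-143, and the part of tissue composition in its level was not tested. MAPK7, the kinase ERK5, ranged from 24.0 to 54.6 CPM, and PDGFRA, a growth factor receptor of stromal cells, from 34.4 to 177 CPM, highest in 2-month ram 2. HK2, a glycolytic enzyme, was highest in 12-month ram 1 at 165 CPM. Of 12 tested targets 0 were called, beside 0% of all tested mRNAs. The list median was -0.43, 0.42 and 0.09 in the 3 comparisons, beside -0.06, 0.05 and 0.07 over all tested mRNAs.

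Other cell types of the vessel wall and of the interstitium were read from their own genes. The 7 pericyte genes summed to 269 CPM in 12-month ram 1 and to 63.2 to 156 CPM elsewhere. Of the 7 genes, 5 were highest in that ram, beside 18.9% of all tested mRNAs. RGS5 had 19.7 CPM there against 4.19 to 11.9 CPM elsewhere. PDGFRB was highest in 2-month ram 2, at 102 CPM, against 77.0 CPM in 12-month ram 1. The 6 endothelial genes summed to 189 CPM in that ram and to 62.2 to 159 CPM elsewhere. The endothelial miRNA rno-miR-126a-3p stood at 6154 CPM there, inside the 3376 to 7635 CPM of the other rams. STAR, which brings cholesterol to the mitochondria of the testosterone-making Leydig cells, had 7.82, 6.85 and 15.6 CPM at 2 months, 17.4, 7.69 and 4.50 CPM at 6 months and 0.627, 0.645 and 1.45 CPM at 12 months. STAR was lower in every 12-month ram than in every younger ram. Its log2 fold change was -3.40 ± 0.66 from 6 to 12 months (edgeR adjusted p = 0.710). The Leydig cell genes CYP11A1 and CYP17A1 also lay lower in every 12-month ram, at 2.21 to 6.34 and 24.4 to 61.3 CPM. In the younger rams they stood at 7.61 to 16.9 and 64.7 to 170 CPM. The other listed Leydig cell genes overlapped, and so did the sum of all 7. This sum was 89.3, 142 and 412 CPM at 12 months, against 246 to 753 CPM in the younger rams. From 6 to 12 months the median log2 fold change of the 7 genes was -0.77, beside 0.05 over all tested mRNAs, and 1 of the 7 was above 0.

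The miRNAs whose levels ran most nearly parallel to the members were found by the SD of the log2 ratio over the 9 libraries, a description with no test. Over 962 other tested miRNAs the median of this SD was 1.20 against oar-miR-143 and 1.28 against chr5 miR-145-5p, and between those members it was 0.13. The nearest to both was an unnamed row predicted on chr15, at 0.44 and 0.37. Next to oar-miR-143 came oar-miR-21 and oar-miR-221, both at 0.48. Next to chr5 miR-145-5p came a row predicted on chr22 and named hsa-miR-378i, at 0.55. A row predicted on chrx and named rno-miR-504 followed at 0.56. These names are those of the prediction, and the bases and strand of the rows were not checked against miRBase. Leaving out any single ram, the chr15 row ranked 1 to 3 for chr5 miR-145-5p and 1 to 43 for oar-miR-143, so the second of these rests on single rams. The oar-miR-21 row ranked 2 to 10 and oar-miR-221 ranked 1 to 106, while hsa-miR-378i ranked 2 to 111 and rno-miR-504 ranked 2 to 74. Their sequences are shown to set the chr15 row beside the others.
chr15 unnamed: gTCCAGTTtcccaggaatcca
oar-miR-21: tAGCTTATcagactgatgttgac
oar-miR-221: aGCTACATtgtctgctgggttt
hsa-miR-378i: cTGACTCCtagtccagtgc
rno-miR-504: aGACCCTGgtctgcactctgtc

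The chr15 row had the miR-145-5p seed and, once 1 base of the chr5 sequence was left out, differed from the remaining 21 bases by C21A, counted in the shortened sequence. Its longest run of t was 3 bases, against 4 in the chr5 row. It held 47551 reads in all, more than the chrx row, and stood at 1.52% to 3.57% of the chr5 row in the 9 libraries. Its levels were 775, 1167 and 1453 CPM at 2 months, 1907, 973 and 2245 CPM at 6 months and 14798, 1192 and 5129 CPM at 12 months. Whether its reads came from chr5 miR-145-5p was not tested. The seeds of the other rows shown are unlike those of the members.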

How the data were processed

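The authors read small RNA on an Ion Proton sequencer and mapped clean reads first to sheep miRBase, then to the sheep genome (Oar_v3.1, per the labels) with miRDeep prediction, and last, using BWA, to the miRBase entries of mouse, rat and human, so longer and shorter forms of a miRNA could enter separate rows. Both deposited tables hold raw read counts per row, with 1 library per ram and no pooling. The aligner of the mRNA reads was not given in the sources used here. The miRNA counts were scaled by upper quartile and the mRNA counts (genes of type mRNA) by TMM, after a filter with filterByExpr by age. Both were fitted over all 9 libraries with edgeR 4.0.16 in R 4.3.3 (quasi-likelihood test, Benjamini-Hochberg adjustment over all tested rows). The fit kept edgeR's default prior count, and a prior count of 0.5 was used for log2 CPM and log2 ratios. A row was called at an adjusted p under 0.05 and more than 1.5-fold. The study used EB-Seq, which was not run here. Ratios within a library were tested by exact permutation. Replicates are separate rams, 3 per age.

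The members and gene lists were chosen with earlier results of these data known. Of 142 list genes, 129 were found in the mRNA table, 9 of them through RefSeq gene identifiers and 2 by older symbols. Named genes were all members, the rows at the threshold, the 3 nearest miRNAs of the top miR-143 and miR-145 rows, fixed genes of each list and the gene with the smallest p per list and comparison. A gene that this rule names is not reported here. CRISP1, CYP11A1, CYP17A1 and oar-miR-200a were named after their values were seen. No coordinates are given, because the RefSeq table follows another build (ARS-UI_Ramb_v3.0). Same-numbered rams are different animals, and their numbers were not treated as pairs. Alternatives were TMM, relative log expression and library totals for scaling, DESeq2 1.42.0, no filter, fits of only 6 libraries, a replicate block and each ram left out.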

Additional observations from a re-analysis of the deposited data

How the results depend on the processing

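In all, 82 values were recomputed, each under 2 to 10 of 13 alternatives and with 6 to 9 rams left out one at a time. Without the filter on low counts, the 2 to 6 month log2 fold change turned to -0.39 for chr5 miR-145-5p, -0.51 for oar-miR-143 and -0.43 for chr5 miR-145-3p. That setting also called the chrx row (2.61 from 6 to 12 months and 3.27 from 2 to 12 months), the chr3 row (2.31) and rno-miR-143-3p (2.87, both from 2 to 12 months), and 6, 41 and 41 miRNAs in the 3 comparisons. DESeq2 called the chrx row from 2 to 12 months (3.37), 8 and 3 miRNAs from 6 to 12 and 2 to 12 months, and 9, 3 and 1 mRNAs. The cause of these differences was not tested. Without 2-month ram 1, 12-month ram 3 and 12-month ram 1, a setting added after the data were seen, chr5 miR-145-3p gave -0.012, -0.14 and -0.15 in the 3 comparisons, and from 6 to 12 months the chr3 row gave -0.057, rno-miR-143-3p -0.30 and the chr10 row -0.40.

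When single rams were left out, the 2 to 6 month log2 fold change ran from -0.010 (without 6-month ram 1) to 0.39 for oar-miR-143, from -0.027 (without 2-month ram 1) to 0.65 for chr5 miR-145-3p and from -0.16 (without 6-month ram 1) to 1.57 for rno-miR-143-3p. From 6 to 12 months the lowest value of each member came without 12-month ram 1, and the chr10 row ran from -0.45 to 1.11, chr5 miR-145-3p from 0.11 to 1.89, the chr3 row from 0.37 to 1.82 and rno-miR-143-3p from 0.56 to 3.003. From 2 to 12 months chr5 miR-145-3p ran from 0.51 to 2.24. The smooth muscle median ran from 0.90 to 2.58 from 6 to 12 months and from 0.10 to 1.60 from 2 to 12 months, and ACTA2 and MYH11 from -0.036 to 1.64 and from -0.039 to 1.54 from 2 to 12 months, each lowest without 12-month ram 1. The chr10 to chrx log2 ratio between 2 and 6 months ran from -0.64 to 0.0028 (without 6-month ram 1). The miRNAs called stayed at 0 and the mRNAs called at 0, except for 1 from 2 to 6 months without 6-month ram 1.

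With the ram number as a replicate block, chr5 miR-145-5p gave 1.68 and 1.91 from 6 to 12 and 2 to 12 months, and the block changed no call. Same-numbered rams did not deviate together in every pair (correlations from -0.68 to 0.20 for miRNAs). Depth limits the chr10 and rat-named rows, with as few as 10, 1 and 0 reads in a library.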

Other observations

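Beside the miRNAs of smooth muscle, miRNAs of other cells were read across the 9 rams. rno-miR-34b-5p, from the miR-34 and miR-449 family of meiotic and ciliated cells, stood at 50807, 3299 and 14952 CPM at 2 months, 41905, 73428 and 62032 CPM at 6 months and 22104, 59911 and 7922 CPM at 12 months. Its 3 lowest libraries were the 3 with the lowest spermatid genes. rno-miR-202-5p, a miRNA of the gonad, was lowest in 12-month ram 1, at 3361 CPM against 12670 to 44715 CPM elsewhere. The striated muscle row chr13 rno-miR-1b stood at 473 CPM in that ram and at 182 to 376 CPM in the others, and the stromal oar-miR-199a-3p at 4522 CPM within 2333 to 6598 CPM. The stromal oar-miR-21 was, like the members, highest in that ram, at 62947 CPM against 14492 to 32039 CPM elsewhere, with 12-month ram 3 next. The blood miRNA rno-miR-451-5p stood there at 4764 CPM, within 2532 to 9973 CPM.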
